A study of Mus musculus with 6 samples.

Results

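The levels of 10 genes that mark macrophages, and in particular the macrophages that live in the heart, were followed across 6 mouse hearts. They were taken by symbol from the 54532 genes of the count table: Csf1r, Adgre1, Cd68, Mrc1, Cd163, Lyve1, Folr2, C1qa, C1qb and C1qc. All 10 were listed once, and all 10 were among the 14866 genes with enough reads to be tested. The smallest count of any of them in any heart was 39 reads (Folr2, heart 380).

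The hearts came from mice whose Na/K-ATPase α1 isoform binds cardiotonic steroids such as ouabain with low or with high affinity. The 3 α1r/rα2s/s hearts (resistant: 368, 369 and 370) carried the naturally resistant mouse α1, and the 3 α1s/sα2s/s hearts (sensitive: 379, 380 and 381) carried amino acid substitutions that make α1 sensitive. Both groups shared the sensitive α2 isoform that mice have by nature, the C57BL/6 background, the male sex and an age of 3 months, and the labels name no treatment. The change is in the germ line, so it is present in macrophages as well as in cardiomyocytes, and each library is the whole heart of 1 mouse.

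Macrophages are the most abundant leukocytes of the healthy heart. Many descend from embryonic precursors and renew themselves in place, and these resident cells carry LYVE1, FOLR2, CD163 and the mannose receptor, whereas macrophages derived from blood monocytes are marked by CCR2. They depend on signals through CSF1R, clear dying cells and debris, take up haemoglobin, and make C1q, the recognition molecule that starts the classical complement pathway. In RNA from a whole organ, fewer macrophages and less RNA of a gene per macrophage cannot be told apart, and this holds for every value below.

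Libraries held 19309312 to 20470065 counted reads, and TMM factors (edgeR's correction of library size for composition) lay between 0.945 and 1.06. The factor was highest in heart 369 and lowest in heart 381, and every α1s/sα2s/s factor was below every α1r/rα2s/s factor. An edgeR quasi-likelihood fit over all 14866 genes gave 116 genes higher and 98 lower in α1s/sα2s/s hearts at a Benjamini-Hochberg adjusted p under 0.05; scaled to library totals alone, 47 were higher and 136 lower. Mitochondrially encoded genes took 23.4 to 24.4% of the reads in α1r/rα2s/s hearts and 25 to 26% in α1s/sα2s/s hearts. Counts per gene do not show the substitutions that define the genotypes. Cardiomyocyte genes summed to between 40180 and 50580 reads per 1000000 reads of the TMM-scaled library (CPM) in each heart.

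None of the 10 macrophage genes passed the test, although the fitted log2 fold change of all 10 was below 0 (α1s/sα2s/s over α1r/rα2s/s). Over all genes tested, 0.659% were called lower, 1.44% were called in either direction and 51.6% had a log2 fold change below 0. In all, 3 of the 10 (Mrc1, C1qa and C1qb) had an unadjusted p under 0.05 with lower values in α1s/sα2s/s hearts, against 7.27% of all genes, and only Mrc1 had hearts that did not overlap between genotypes, against 9.98% of all genes that were lower without overlap. The median log2 fold change of the 10 was -0.37, and that of all genes -0.01. DESeq2 on the same counts called 2 of the 10, Mrc1 and C1qa, both lower in α1s/sα2s/s hearts, where it called 1.37% of the genes it adjusted in that direction.

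**Figure D1:**
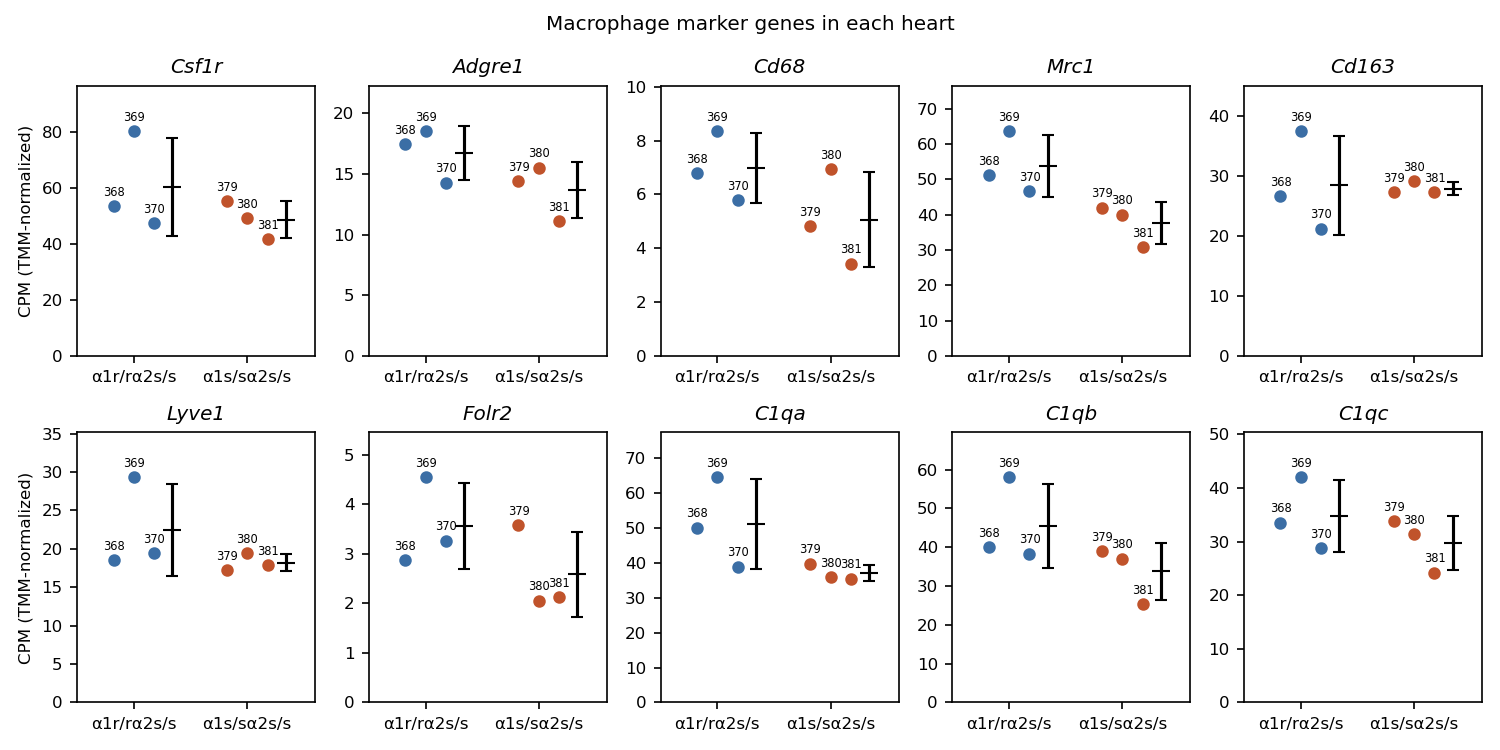
CPM of each macrophage gene in each heart (points, labelled by heart), with the mean and SD of 3 hearts per genotype (bars); each vertical axis starts at 0. Heart 369 is the highest of the 6 in every panel, and Mrc1 is the panel in which the genotypes do not overlap (lowest α1r/rα2s/s heart 46.7, highest α1s/sα2s/s heart 42.1).

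The upstream sequences of 3 of the genes are shown because they span the range of the results: Mrc1 had the largest fitted difference, Cd163 the smallest, and C1qb stands for the C1q genes. RefSeq promoter windows on GRCm38.p6 were at hand for 6 of the 10 genes. Each stretch runs 5′ to 3′ on the strand of its gene and ends before the first base of the gene, Mrc1 at chr2:14229164-14229391 (plus strand), Cd163 at chr6:124304401-124304650 (plus strand) and C1qb at chr4:136886201-136886450 (minus strand). Capitals mark GAGGAA, a core of binding sites for the macrophage factor PU.1, and TGCTGA, a MAF half-site, each searched on both strands (TTCCTC is GAGGAA on the other strand); no matches of the motifs overlap in these sequences.
Mrc1: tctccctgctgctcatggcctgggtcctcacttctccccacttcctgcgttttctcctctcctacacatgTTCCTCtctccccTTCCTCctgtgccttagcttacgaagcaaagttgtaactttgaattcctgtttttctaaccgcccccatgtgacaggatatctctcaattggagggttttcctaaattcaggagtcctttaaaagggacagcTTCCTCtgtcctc
Cd163: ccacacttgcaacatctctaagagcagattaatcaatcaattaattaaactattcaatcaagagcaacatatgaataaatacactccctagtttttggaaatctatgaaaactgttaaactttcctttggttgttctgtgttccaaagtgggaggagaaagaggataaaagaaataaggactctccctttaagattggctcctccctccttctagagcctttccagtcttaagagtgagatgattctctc
C1qb: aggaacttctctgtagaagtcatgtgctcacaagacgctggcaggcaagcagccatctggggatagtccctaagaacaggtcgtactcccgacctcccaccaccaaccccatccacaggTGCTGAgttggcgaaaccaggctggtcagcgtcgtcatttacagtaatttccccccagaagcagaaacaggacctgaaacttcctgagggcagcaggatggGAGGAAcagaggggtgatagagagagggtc

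In the 250 bases before the RefSeq start, Mrc1 held GAGGAA at 3 places, 180, 167 and 35 bases upstream. C1qb held GAGGAA 30 bases and TGCTGA 131 bases upstream, and neither was found in the Cd163 window. Of 32851 mouse promoter windows of that length, 23.3% held GAGGAA and 16.1% held TGCTGA, so these letters are common and mark no site by themselves. Of the 6 genes with a window, 4 held GAGGAA (Cd68, Mrc1, C1qb and C1qc) and 2 held TGCTGA (C1qb, and Folr2 in both of its windows).

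The general macrophage genes came first. Csf1r encodes the receptor for CSF1 and IL-34 that macrophages need to survive. It lies on chromosome 18 (61105572 to 61132149, GRCm38, plus strand). Csf1r measured 53.5, 80.5 and 47.4 CPM in α1r/rα2s/s hearts 368, 369 and 370 and 55.3, 49.2 and 41.9 CPM in α1s/sα2s/s hearts 379, 380 and 381. Heart 369 stood well above the other 5, which ran together. Its log2 fold change was -0.31 ± 0.15 (SE; 95% interval -0.64 to 0.02; edgeR adjusted p = 0.379), and -0.045 without heart 369.

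Adgre1 encodes F4/80, the adhesion receptor long used as an antibody marker of mouse macrophages. Adgre1 measured 17.4, 18.5 and 14.3 CPM in the 3 α1r/rα2s/s hearts and 14.4, 15.5 and 11.1 CPM in the 3 α1s/sα2s/s hearts, taken in the same order here and below. Heart 370 lay among the α1s/sα2s/s hearts. The log2 fold change of Adgre1 was -0.29 ± 0.14 (adjusted p = 0.36). Cd68 encodes macrosialin, a glycoprotein of the endosomes and lysosomes of phagocytes. Its CPM values were 6.78, 8.36 and 5.78 against 4.82, 6.94 and 3.42. Heart 380 lay above hearts 368 and 370, and the log2 fold change of Cd68 was -0.46 with a wide 95% interval of -0.97 to 0.04 (adjusted p = 0.39).

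Mrc1 encodes the mannose receptor, an endocytic lectin of tissue macrophages. It lies on chromosome 2 (14229392 to 14332057, plus strand). Mrc1 measured 51.2, 63.7 and 46.7 CPM in α1r/rα2s/s hearts and 42.1, 40.0 and 30.9 CPM in α1s/sα2s/s hearts. Every α1s/sα2s/s heart was below every α1r/rα2s/s heart, with means of 53.9 ± 8.84 and 37.7 ± 5.96 CPM (SD, n = 3 each). The log2 fold change of Mrc1 was -0.52 ± 0.12 (SE; 95% interval -0.78 to -0.25), with an unadjusted edgeR p of 0.000841 and an adjusted p of 0.0549, above the threshold. The adjusted p of Mrc1 fell below 0.05 in DESeq2 (0.0067), with upper-quartile scaling (0.0459), with at least 10 reads asked of every heart (0.0488), with no filter on low counts (9.4e-06) and without heart 370 (0.0411), and it was 0.209 without heart 369 and 0.176 without heart 381.

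Cd163 encodes the scavenger receptor that takes up haemoglobin bound to haptoglobin. It lies on chromosome 6 (124304656 to 124330527, plus strand). Cd163 measured 26.6, 37.5 and 21.2 CPM in α1r/rα2s/s hearts and 27.2, 29.1 and 27.3 CPM in α1s/sα2s/s hearts. The α1s/sα2s/s hearts lay within 2 CPM of each other and inside the range of the α1r/rα2s/s hearts. Cd163 had the smallest fitted difference of the 10, -0.03 ± 0.15 on the log2 scale (95% interval -0.35 to 0.30; adjusted p = 0.954), and without heart 369 the fitted value was 0.23 (adjusted p = 0.52).

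Lyve1 encodes a hyaluronan receptor of resident macrophages that lymphatic endothelium also carries. Lyve1 measured 18.5, 29.3 and 19.4 CPM in α1r/rα2s/s hearts and 17.2, 19.4 and 17.9 CPM in α1s/sα2s/s hearts. Heart 369 again stood alone, and the other 5 hearts lay between 17.2 and 19.4 CPM. The log2 fold change of Lyve1 was -0.30 ± 0.15 (adjusted p = 0.37), and -0.0595 without heart 369. Of 5 tested genes of lymphatic endothelium, 4 had values below 0 and none passed the test. Prox1, the factor that sets lymphatic identity, had the smallest p of them, with 121, 90.6 and 128 CPM against 94.9, 85.6 and 75 CPM and a log2 fold change of -0.41 (adjusted p = 0.1). Its mean in α1r/rα2s/s hearts was 113 CPM, against 4.20 to 21.4 CPM for the other tested lymphatic genes. Whole-heart counts do not show which cells carried Prox1. Within the α1r/rα2s/s hearts, Prox1, Flt4 and Reln were not highest in heart 369, while Pdpn and Mmrn1 were, as Lyve1 was. The part of lymphatic cells in the Lyve1 values was not tested.

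Folr2 encodes a folate receptor of resident macrophages and was the least abundant of the 10. Its CPM values were 2.87, 4.54 and 3.27 in α1r/rα2s/s hearts and 3.58, 2.05 and 2.13 in α1s/sα2s/s hearts. Heart 379 lay between the α1r/rα2s/s hearts while the other two α1s/sα2s/s hearts were below them. The log2 fold change of Folr2 was -0.46, and with 39 to 95 reads a heart its 95% interval reached from -1.08 to 0.16 (adjusted p = 0.502). Counting error alone gave Folr2 a coefficient of variation of 12.7%, against 3.01% for Csf1r.

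C1qa, C1qb and C1qc encode the A, B and C chains that assemble into C1q, and they lie side by side on the minus strand of chromosome 4 (136880129 to 136898803, 18675 bases). C1qa measured 50.1, 64.5 and 38.9 CPM in α1r/rα2s/s hearts and 39.8, 35.9 and 35.5 CPM in α1s/sα2s/s hearts. The groups overlapped through hearts 370 and 379 alone. The log2 fold change of C1qa was -0.46 ± 0.14 (SE; 95% interval -0.75 to -0.17; edgeR adjusted p = 0.118). Its adjusted p was 0.0166 without heart 370, 0.411 without heart 369 and 0.0402 in DESeq2.

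C1qb measured 40.1, 58.0 and 38.4 CPM against 39.0, 37.0 and 25.4 CPM. Hearts 368, 370, 379 and 380 were close together, with heart 369 above and heart 381 below them. The log2 fold change of C1qb was -0.43 ± 0.16 (SE; 95% interval -0.77 to -0.09; edgeR adjusted p = 0.225). C1qc measured 33.5, 41.9 and 28.8 CPM against 33.8, 31.4 and 24.2 CPM. Its groups overlapped more widely, and the log2 fold change of C1qc was -0.22 ± 0.14 (adjusted p = 0.491), -0.0607 without heart 369 and -0.0916 without heart 381. Summed over the chains, C1q reads came to 131 ± 30.0 CPM in α1r/rα2s/s hearts and 101 ± 14.1 CPM in α1s/sα2s/s hearts (SD, n = 3 each).

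**Figure D2:**
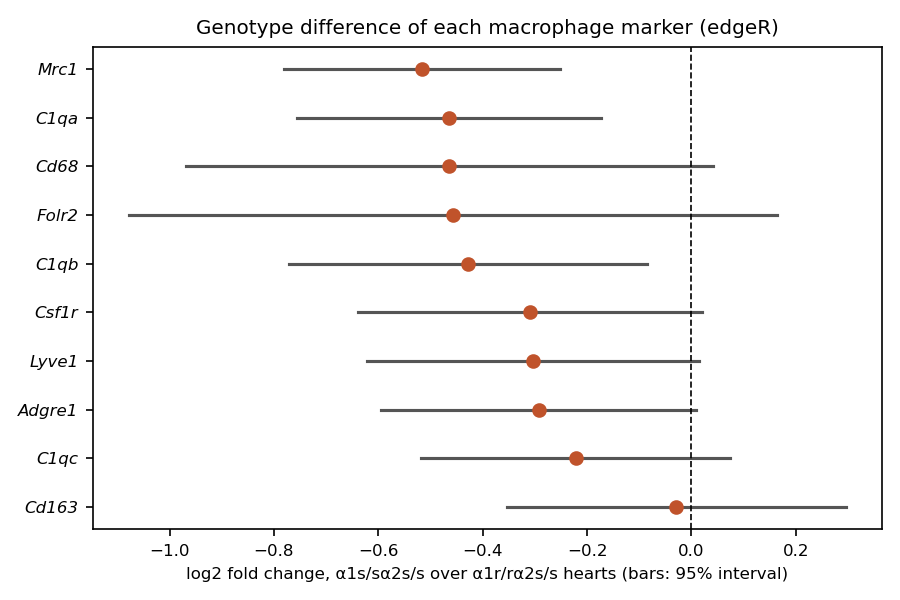
Fitted log2 fold change (points) of each macrophage gene, α1s/sα2s/s over α1r/rα2s/s hearts, with its 95% interval from edgeR (lines); the dashed line is no difference. All 10 points lie below 0, from -0.52 (Mrc1) to -0.03 (Cd163), and the intervals of Mrc1, C1qa and C1qb do not reach 0; these intervals are not adjusted for the number of genes.

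Levels of different genes were compared per length, as CPM per kilobase of gene length (RPKM), because a longer transcript gives more reads. The mean RPKM over the 6 hearts was 42.4 for C1qa, 36.4 for C1qb and 16.7 for C1qc, then 11.2 for Csf1r, 7.18 for Mrc1, 6.95 for Lyve1, 5.15 for Cd163, 4.79 for Cd68, 4.70 for Adgre1 and 1.99 for Folr2. C1qa was above 94.8% of all tested genes on this scale and Folr2 above 39%. Of neighbours in this order, C1qb lay above C1qc and Adgre1 above Folr2 in RPKM with no overlap between hearts. The ranges of the other neighbours overlapped, yet within each of the 6 hearts C1qa was above C1qb, C1qc above Csf1r, Csf1r above Mrc1 and Lyve1 above Cd163. Mrc1 exceeded Lyve1 in 3 of 6 hearts, Cd163 exceeded Cd68 in 3 and Cd68 exceeded Adgre1 in 4, so these neighbours had no fixed order.

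Among the C1q chains, C1qa made up 40.7 to 48.8% of their summed RPKM in a heart and C1qb 33.3 to 40.3%. C1qc took 16.9, 15.8 and 17.0% in α1r/rα2s/s hearts and 19.1, 19.2 and 17.9% in α1s/sα2s/s hearts. These shares were looked at after the values of the single genes were known and were not tested. Of the 45 CPM ratios between pairs of the 10 genes within a heart, 7 did not overlap between genotypes, C1qb to C1qc among them. Of these 7, 4 involved Cd163 and 3 involved Mrc1, with the ratio of Mrc1 to Cd163 in both counts. The pairs share genes, and the share over pairs of all tested genes was not computed, so the count is no result about the 10.

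**Figure D3:**
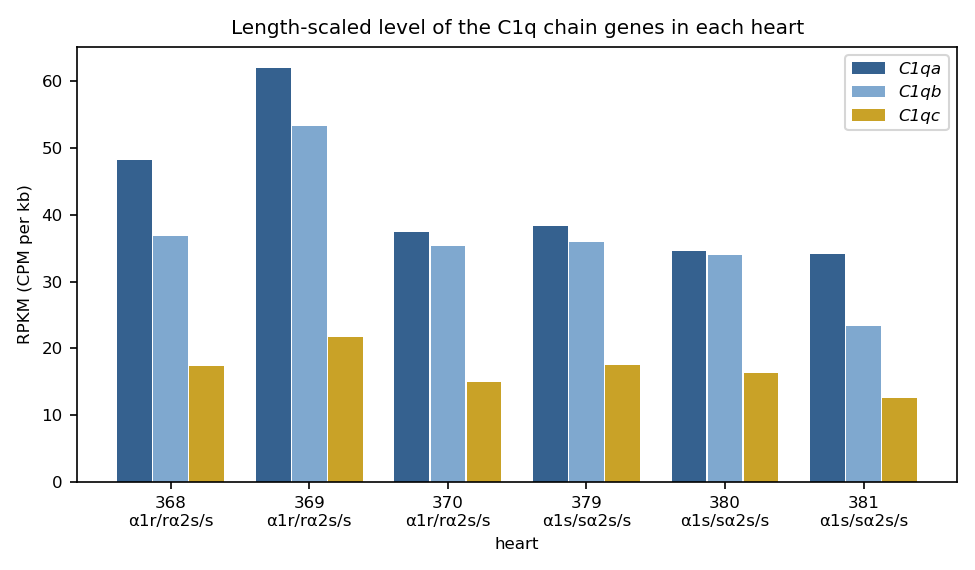
RPKM of C1qa, C1qb and C1qc (bars, from 0) in each heart. C1qa is the highest and C1qc the lowest of the chains in all 6 hearts, and all 3 chains are highest in heart 369 (62.1, 53.3 and 21.7 RPKM).

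Much of the spread in these genes lay between hearts of the same genotype. The summed CPM of the 10 genes was 300.4, 407 and 264 in α1r/rα2s/s hearts 368, 369 and 370 and 277, 267 and 219.6 in α1s/sα2s/s hearts 379, 380 and 381. The sum was highest in heart 369 and lowest in heart 381, and hearts 370, 379 and 380 differed little whatever their genotype. The means were 324 ± 74.2 and 255 ± 30.7 CPM (SD, n = 3 each), a ratio of 0.786. The ratio was 0.902 without heart 369, 0.84 without heart 381 and 0.963 without both. Without heart 369 the fitted log2 fold changes of C1qa, C1qb, Folr2 and Cd68 were -0.26, -0.21, -0.24 and -0.31, and without heart 381 those of Adgre1, Cd68 and C1qb were -0.16, -0.25 and -0.26, each with an adjusted p above the threshold. Without both hearts, 3 of the 10 log2 fold changes were above 0 (Csf1r 0.051, Cd163 0.24 and C1qc 0.0655), and none of the 10 was called.

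Heart 369 held the highest CPM of all 10 genes, and heart 381 the lowest of 7, the exceptions being Cd163 (lowest in 370), Lyve1 (379) and Folr2 (380). Over all genes tested, heart 369 was the highest for 19.2% and the lowest for 18.3%. Heart 381 was the lowest for 22.6% and the highest for 21.7%. On the log2 scale, the mean deviation of the 10 genes from their own means was 0.51 in heart 369 and -0.40 in heart 381, and between -0.08 and 0.08 in the other 4. Replicates of the α1r/rα2s/s group varied most for Cd163 and Csf1r (coefficients of variation of 29.2% and 29.1%), where counting error alone gave 4.21% and 3.01%. In α1s/sα2s/s hearts Cd163 varied by 3.83%, and Cd68 and Folr2 by 35% and 33.2%.

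**Figure D4:**
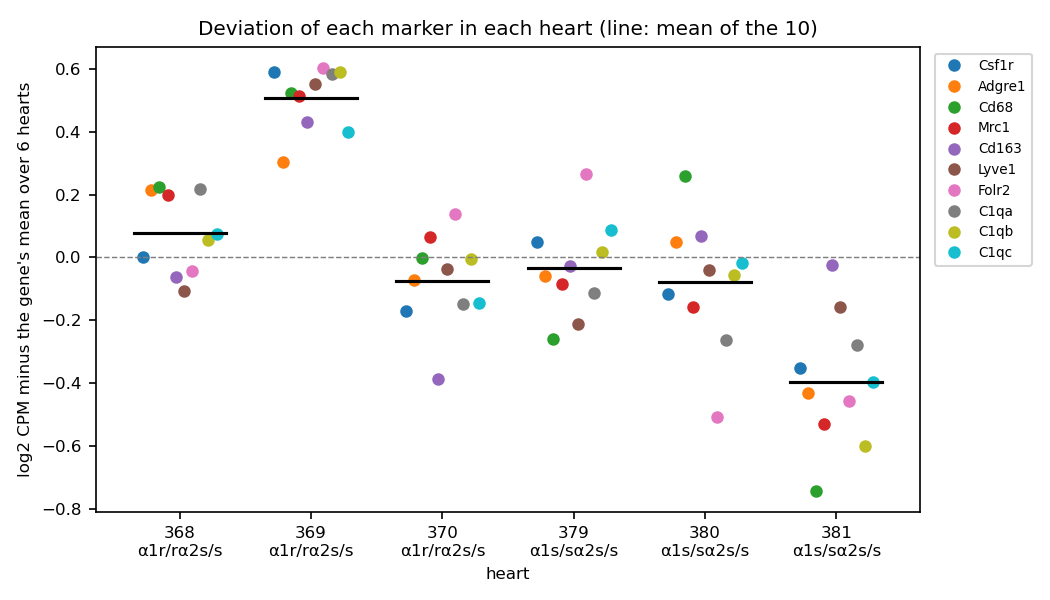
Deviation of each macrophage gene (coloured points) in each heart from its mean log2 CPM over the 6 hearts, with the mean of the 10 genes as a line. All points of heart 369 lie above 0 and all points of heart 381 below 0, while the points of the other 4 hearts lie on both sides.

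Other cell types differed in whether they followed these hearts. Cardiomyocyte genes summed to 44150, 40180 and 50580 CPM in α1r/rα2s/s hearts and 46300, 45700 and 50160 CPM in α1s/sα2s/s hearts, so they were lowest in heart 369 and highest in heart 370. None of 7 cardiomyocyte genes passed the test, 6 had values above 0, and Actn2 had the smallest p. Fibroblast genes summed to 1209, 1307 and 1113 CPM against 1144, 1133 and 988 CPM, highest in heart 369 and lowest in heart 381, as for the macrophage genes. Of 7 fibroblast genes, 5 had values below 0 and none passed, with a list median of -0.26 on the log2 scale. Col3a1, a chain of fibrillar collagen, came nearest, with a log2 fold change of -0.49 (adjusted p = 0.0542). Pdgfra and Dcn were above 0, with log2 fold changes of 0.14 and 0.06. The part of tissue composition in the macrophage values was not tested.

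Vascular endothelial genes (5 of 7 below 0) and mural cell genes (6 of 6) gave no call either. The vascular endothelial list had a median log2 fold change of -0.06, with Pecam1 (0.002) and Tie1 (0.12) above 0. Kdr, the main receptor for VEGF on endothelium, differed by -0.50 on the log2 scale (adjusted p = 0.0694), and Cspg4, the pericyte proteoglycan NG2, by -0.46 (adjusted p = 0.0969). Both were lowest in heart 381, at 149.5 and 15.5 CPM. As a list, vascular endothelial genes were highest in heart 369 (1121 CPM) and lowest in heart 381 (823.5 CPM), as for the macrophage genes. Mural cell genes as a list were highest in heart 368 (1064 CPM). Lymphatic genes summed highest in heart 370 (168.8 CPM), where Prox1 alone gave 128 CPM. Flt4, Reln, Pdpn and Mmrn1 were not highest there.

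**Figure D5:**
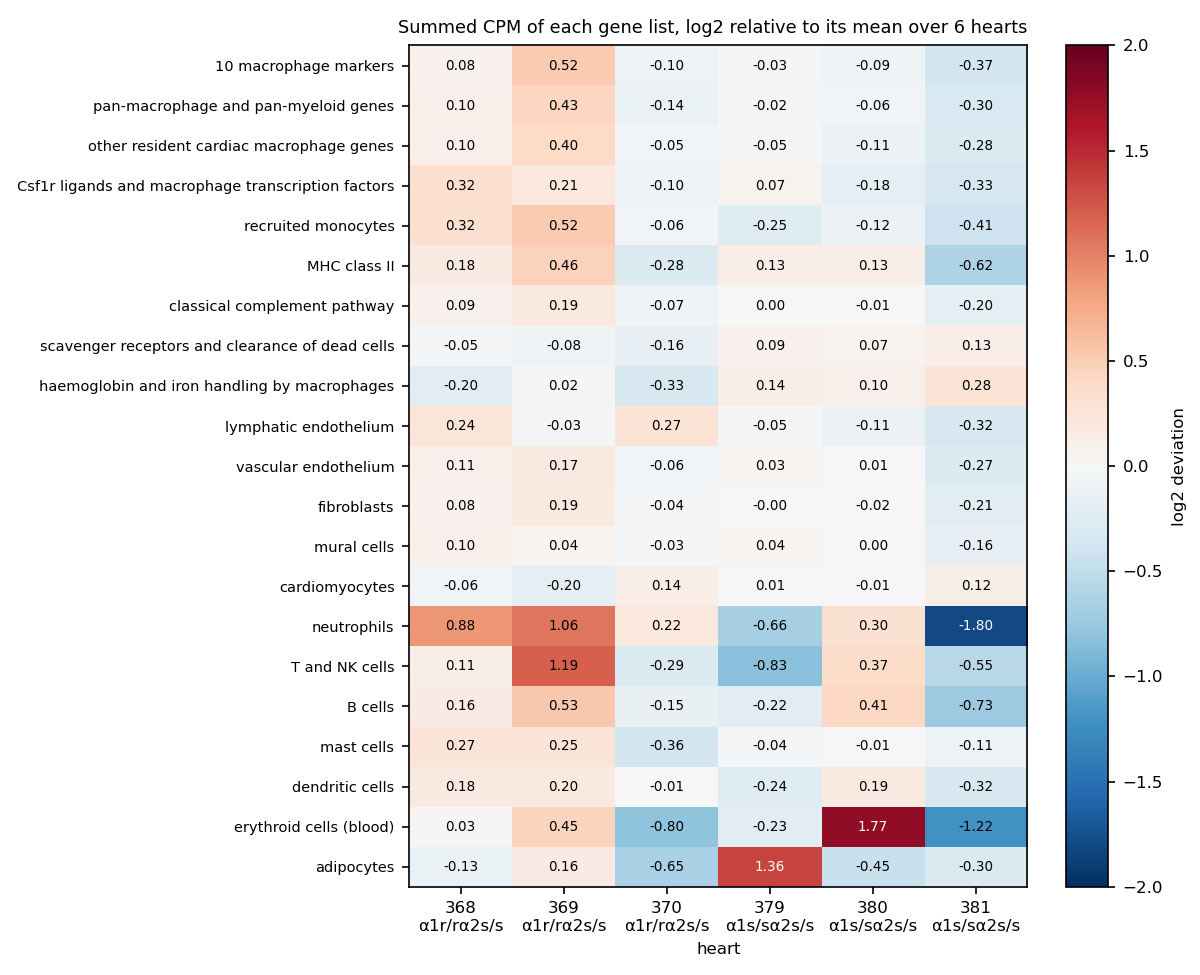
Summed CPM of each gene list in each heart as log2 difference from the mean of that list over the 6 hearts (colour and printed value). The rows of the 10 macrophage genes, pan-myeloid genes, other resident macrophage genes and MHC class II genes run from high in heart 369 to low in heart 381. The rows of fibroblast, vascular endothelial, complement, recruited monocyte, neutrophil, B cell and dendritic cell genes are also highest in heart 369 and lowest in heart 381. The row of cardiomyocyte genes is lowest in heart 369.

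Macrophage and myeloid genes outside the 10 had values of like size. Of 18 pan-macrophage and pan-myeloid genes none passed the test, with a list median of -0.40 on the log2 scale. A log2 fold change below 0 was found for 16, against 51.6% of all genes. Of these, 8 had an unadjusted p under 0.05, against 7.27% of all genes that were lower with such a p. Ptprc, which encodes the leukocyte antigen CD45, had the smallest p: 18.3, 21.7 and 16.5 CPM against 12.4, 16.2 and 9.39 CPM, with no overlap and a log2 fold change of -0.58 (adjusted p = 0.111). Cd14 and Lgmn were the exceptions, with log2 fold changes of 0.11 and 0.05. Lower values without overlap were found for 5 of the 18, Ptprc among them, against 9.98% of all genes. Summed CPM of this list was 444, 560 and 377 against 410, 399 and 337, with the hearts in the same order as for the 10 genes.

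Of 11 tested genes among other resident macrophage genes, none passed, 9 were below 0 and 6 of these had an unadjusted p under 0.05. Over all genes tested, 51.6% were below 0 and 7.27% were lower with such a p. Stab1, the scavenger receptor stabilin, came nearest: 88.1, 109.7 and 88.0 CPM in α1r/rα2s/s hearts and 75.2, 76.6 and 68.9 CPM in α1s/sα2s/s hearts. As for Mrc1, the genotypes did not overlap, and Stab1 differed by -0.37 ± 0.09 on the log2 scale (adjusted p = 0.0552). Maf also had no overlap, so 2 of the 11 were lower without it, against 9.98% of all genes. Cd209f was too low to be tested, with 2 to 14 reads.

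The upstream signals gave no call. Of 7 tested genes for CSF1R ligands and macrophage transcription factors, 6 were below 0. Csf1, the ligand itself, measured 67.0, 50.3 and 42.9 CPM against 47.6, 36.7 and 31.2 CPM, with a log2 fold change of -0.47 (adjusted p = 0.162). Here heart 368 and not heart 369 was the highest. Spi1, which encodes PU.1, had a log2 fold change of -0.04. Nr1h3, the 1 gene of this list above 0, measured 14.0, 14.1 and 10.6 CPM against 15.3, 15.9 and 17.1 CPM. Its log2 fold change was 0.32 (edgeR adjusted p = 0.276), and every α1s/sα2s/s heart was above every α1r/rα2s/s heart. Of all 14866 genes tested, 1488 were higher without overlap.

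Genes listed for monocytes that enter from the blood held 2 of the 3 calls among the lists. These were 2 of 6 tested genes, against 1.44% of all genes called in either direction. Itga4, an integrin subunit for leukocyte adhesion, fell from 7.45, 7.83 and 6.78 CPM to 4.22, 4.95 and 3.73 CPM, with no overlap. Its log2 fold change was -0.77 ± 0.18 (edgeR adjusted p = 0.0498), and leaving out any 1 heart put the adjusted p between 0.0646 and 0.167. Chil3, which encodes a chitinase-like protein of myeloid cells, rose from 2, 0 and 1 reads to 17, 13 and 34 reads. The summed counts gave a ratio of 22.6 (95% exact counting interval 7.38 to 112), and the edgeR adjusted p of 0.0129 became 0.0615 without heart 369 and 0.0679 without heart 381. Itga4 and Chil3 thus moved in opposite directions within 1 list, and whole-heart counts do not show which cells carried either difference. The other 4 tested genes of the list, Ccr2 among them, had values below 0 and did not pass, and Ly6c2 and Plac8 were too low to be tested.

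Genes for what macrophages take up and present were mixed. Slc40a1, which encodes the iron exporter ferroportin, rose from 29.0, 31.1 and 29.4 CPM to 45.9, 44.1 and 46.7 CPM. The groups lay far apart, with a log2 fold change of 0.61 ± 0.08 (edgeR adjusted p = 0.00167), and the call held in each of 14 alternatives, with adjusted p at most 0.0114. Heart 369 did not stand out for Slc40a1. It was the only call among 5 tested genes of haemoglobin and iron handling. Cardiomyocytes also express ferroportin, and whole-heart counts do not show which cells carried the difference.

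Of 8 tested scavenger receptor and clearance genes none passed, and 4 lay on each side of 0; Cd36, the fatty acid transporter that cardiomyocytes and endothelium express strongly, had the smallest p, with 2154, 2070 and 1966 CPM against 2362, 2347 and 2456 CPM (log2 fold change 0.21, adjusted p = 0.164). All 5 MHC class II genes were below 0 with a median of -0.24 and none passed. Their sum was 298, 360 and 216 CPM against 287, 286 and 171 CPM, and H2-Aa had the smallest p.

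In the classical complement pathway, where C1q is the first component, all 11 tested genes were below 0 and none passed, with a median of -0.24. Of these, 3 had an unadjusted p under 0.05. Over all genes tested, 51.6% were below 0 and 7.27% were lower with such a p. Itgb2, the shared chain of complement receptors on myeloid cells, measured 7.11, 10.7 and 7.18 CPM against 7.05, 6.21 and 4.46 CPM, with a log2 fold change of -0.49 (adjusted p = 0.292). C1s1, a protease of the C1 complex, differed by -0.24 on the log2 scale (adjusted p = 0.338). C2 was too low to be tested.

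Other leukocyte lists rested on few reads and gave no call. All 3 tested neutrophil genes were below 0, with S100a8 the nearest to the threshold (log2 fold change -2.34, adjusted p = 0.0606), and their list summed to 5.48 to 9.84 CPM in α1r/rα2s/s hearts and 1.35 to 5.79 CPM in α1s/sα2s/s hearts. Ly6g had no read in any heart. For T and NK cells Cd4 alone was tested (log2 fold change -0.70, adjusted p = 0.554), and Cd3e had 0 to 5 reads. All 5 B cell genes, 3 of 4 mast cell genes and 1 of 3 dendritic cell genes were below 0, with Cd79b, Tpsb2 and Zbtb46 the smallest p of their lists.

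Blood was represented by globin and haem synthesis genes. Erythroid genes summed to 954, 1272 and 537 CPM against 796, 3187 and 401 CPM. They were by far the highest in heart 380, while the other 5 hearts stood in the same order as for the macrophage sum, from heart 369 down to heart 381. The part of blood in the macrophage values was not tested. None of the 5 passed (Hba-a1 had the smallest p, adjusted p = 0.564). Adipocyte genes summed to 2.56 to 4.49 CPM against 2.95 to 10.3 CPM, and none of 3 passed (Plin1, adjusted p = 0.266).

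Genes outside the 10 were ranked by likeness to them, over 12098 genes whose log2 CPM averaged 1 or more. The 5 whose log2 deviations across the 6 hearts were nearest to the mean of the macrophage genes were Car8, Chst15, C4b, Tceal9 and Col14a1, with root mean square differences of 0.0507 to 0.057. Car8 encodes a carbonic anhydrase-related protein, Chst15 a sulfotransferase, C4b a classical complement component and Col14a1 a collagen of connective tissue. Car8 measured 32.9, 43.5 and 28.7 CPM against 31.2, 27.0 and 23.7 CPM, and none of the 5 was called, with log2 fold changes from -0.38 to -0.31. All 5 were highest in heart 369 and lowest in heart 381. Both this and their log2 fold changes follow from picking them by likeness to the 10.

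Some reads could belong to neighbours. Csf1r overlaps Hmgxb3 and Folr2 overlaps Gm10602, both on the opposite strand, and the sources used here do not state whether counting used strand. Hmgxb3 had 330 to 447 reads a heart and was not highest in heart 369, and Gm10602 had 24 to 40 reads. Mrc1 overlaps the gene of the microRNA Mir511, which had at most 2 reads.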

How the data were processed

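RNA from 6 whole hearts (3 mice per genotype, as the labels give them) was sequenced by a company on an Illumina NovaSeq. The submitters' processing notes name fastp, STAR, featureCounts and mm10, with no versions or settings. The authors deposited raw counts per gene, which were used as they stand. Their deposited comparison table (fold changes and p-values) was not used. Of 54532 listed genes 53585 have identical coordinates in GENCODE M21, so positions are given on GRCm38.

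Counts were scaled by TMM, filtered with filterByExpr (minimum count 10, minimum total 15) and tested with edgeR 4.0.16 (glmQLFit, glmQLFTest, R 4.3.3), genotype being the single term. A prior count of 2 was used for log2 CPM values. p-values were two-sided and Benjamini-Hochberg adjusted over the 14866 genes tested, with 0.05 as the threshold. Fold changes carry standard errors and 95% intervals. CPM were divided by gene length for RPKM, with the lengths in the deposited table. DESeq2 1.42.0 and 13 other settings were alternatives, and leaving out hearts 369 and 381 together was added after seeing the data. The fitting code was checked on simulated counts.

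The 10 genes and the 20 lists of other genes were chosen with earlier results of these data known. Named genes were the 10, in each list the called genes or else the one with the smallest p, and the 5 nearest by deviation; others named, such as Cd14, Lgmn, Spi1, Ccr2 and C1s1, were chosen after their values were seen. Littermate or cage groups are not given per heart. With 3 hearts per genotype, an exact permutation test of a single value cannot go below p = 0.1, so none was run. Counting intervals cover counting error alone. The level of the altered gene is not reported here.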

Additional observations from a re-analysis of the deposited data

How the results depend on the processing

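For the summed CPM of the 10 genes, the genotype difference was close to the spread between hearts (323.8 ± 74.2 against 254.5 ± 30.7, SD, n = 3 each). The number of macrophage genes called, 0 of 10, was 1 with upper-quartile factors, 1 with at least 10 counts in every heart, 1 at an adjusted p under 0.1, 2 in DESeq2 (where Folr2 had no adjusted p), 4 with no filter (Csf1r, Mrc1, C1qa and C1qb), and 0 to 2 when 1 heart was left out. The 2 came without heart 370 and were Mrc1 and C1qa. It was 0 with RLE factors, library totals alone, the robust prior and globin and mitochondrial genes left out. The number with a log2 fold change above 0, 0 in the main fit, was 0 to 1 when 1 heart was left out and 3 without hearts 369 and 381. Reversed values were those of Cd163 without heart 369 (0.23; from -0.20 to 0.23 when 1 heart was left out) and, without hearts 369 and 381, those of Csf1r (0.051), Cd163 (0.24) and C1qc (0.0655).

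Over the whole table, 214 of 14866 genes were called, against 618 of 28183 with no filter and 400 of 11244 in DESeq2. The count was 231 of 14866 with upper-quartile factors and 222 of 13447 with at least 10 counts in every heart. At an adjusted p under 0.1 it was 402 of 14866. Without hearts 369 and 381 it was 82 of 15004. When 1 heart was left out it ran from 80 of 15302 to 158 of 15329. The 3 calls in the lists of other genes became 5 with upper-quartile factors, 28 with no filter, 7 in DESeq2, 5 with the robust prior and 1 to 5 when 1 heart was left out. Leaving out hearts leaves fewer samples, and the cause of the other changes was not tested. Itga4 was also lost with RLE factors (adjusted p = 0.051), and Chil3 had no adjusted p in DESeq2 and was too low for the filter of 10 counts in every heart. No paired analysis was possible because the labels give no number or litter that the genotypes share.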
